A study of Mus musculus with 14 samples.

Results

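The unfolded protein response and the integrated stress response are described here through 34 genes, of 55335 in the count tables, measured in mouse intestinal stem cells. The genes were taken by symbol from a fixed list, which was chosen with earlier results of these data known. Their shares, set beside those of all genes below, are therefore descriptions and not independent tests. Of the 34 genes, 14 encode chaperones and folding enzymes of the endoplasmic reticulum (ER), and 7 act in ER-associated degradation (ERAD). Another 7 encode stress sensors and the transcription factors they release, and 6 belong to the Atf4 branch. All 34 were found in both tables under a single identifier each, and all 34 passed the filter on low counts in both. Polyadenylated RNA was sequenced from cells sorted for the EGFP expressed from the Lgr5 locus, which marks the dividing stem cells at the base of the intestinal crypt. In the first experiment every mouse carried the Lgr5CreERT2-IRES-GFP knock-in and the Chrm3flox/flox alleles, so that Cre was made in Lgr5 cells. Vehicle (named WT) or tamoxifen (named KO) was injected for 3 days ahead of the procedure that the labels abbreviate ES, and untreated groups are named NT. Injection and genotype thus changed together. Each genotype had an NT group and an ES group, all of 2 libraries. In the second experiment Lgr5CreERT2-IRES-GFP mice without a floxed Chrm3 gene in their labels were young (2 months) or old (18 months), with 3 libraries each. Separate animals are not stated for the libraries of a group, and the p-values therefore reflect variation among libraries that may be technical.

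Proteins that are secreted or set in membranes fold in the ER, and when unfolded chains accumulate there, sensors in the ER membrane start the unfolded protein response. Ire1 (genes Ern1 and, in gut epithelium, Ern2) splices the mRNA of Xbp1, Atf6 is cut to release a transcription factor, and Perk (Eif2ak3) phosphorylates the translation factor eIF2. Xbp1 and Atf6 raise chaperones, folding enzymes and ERAD proteins, whereas eIF2 phosphorylation, which other kinases also carry out in the integrated stress response, favours translation of Atf4 and transcription of its targets. In the intestine these pathways are known above all from goblet and Paneth cells, which secrete large amounts of protein. Counts per gene do not show Xbp1 splicing, Atf6 cleavage or translation of Atf4.

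DNA elements described for the unfolded protein response and the integrated stress response are shown first, as sequence matches only. RefSeq promoter windows (GRCm38.p6, 250 bases before to 50 bases after the transcription start) were matched for 28 of the 34 genes. For 25 of these genes the end of the window was found in one of the gene's transcripts, and the rest were kept. Both strands were searched for the ER stress element ERSE (CCAAT, any 9 bases, CCACG), for ERSE-II (ATTGG, any 1 base, CCACG), for the unfolded protein response element UPRE (TGACGTGG) and for the C/EBP-ATF response element CARE (TGATGNAA), which Atf4 binds. The ERSE letters were present for 9 of the 28 genes and in 39 of all 32851 windows (0.119%), which were counted as windows and not as genes. ERSE-II was found in 2 of the 28 and in 12 of all windows (0.0365%), CARE in 4 of the 28 and in 1304 of all (3.97%), and UPRE in 0 of the 28 and in 222 of all (0.676%). By role, ERSE lay in 7 of 12 folding genes, 2 of 6 ERAD genes, 0 of 4 sensors and factors and 0 of 6 Atf4 branch genes, and CARE lay in 0 of 12, 1 of 6, 0 of 4 and 3 of 6 of them. Each match is printed with 8 bases on each side, 5′ to 3′ in the direction of the element and on the strand given, with the fixed letters of the element in capitals.
Hspa5, ERSE, chr2:34772017-34772051, plus strand: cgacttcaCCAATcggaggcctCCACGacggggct
Hsp90b1, ERSE, chr10:86705630-86705664, minus strand: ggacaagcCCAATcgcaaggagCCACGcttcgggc
Hsp90b1, ERSE, chr10:86705525-86705559, plus strand: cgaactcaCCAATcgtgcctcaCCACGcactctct
Calr, ERSE, chr8:84847067-84847101, plus strand: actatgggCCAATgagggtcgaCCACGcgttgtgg
Canx, ERSE, chr11:50325792-50325826, minus strand: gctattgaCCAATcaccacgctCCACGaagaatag
Pdia6, ERSE, chr12:17266483-17266517, plus strand: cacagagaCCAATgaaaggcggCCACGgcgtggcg
Dnajc3, ERSE, chr14:118937819-118937853, plus strand: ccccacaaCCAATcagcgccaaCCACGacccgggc
Creld2, ERSE, chr15:88819512-88819546, minus strand: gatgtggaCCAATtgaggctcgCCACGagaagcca
Syvn1, ERSE, chr19:6046524-6046558, plus strand: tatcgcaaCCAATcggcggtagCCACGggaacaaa
Derl3, ERSE, chr10:75893234-75893268, minus strand: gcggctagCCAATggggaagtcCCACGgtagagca
Herpud1, ERSE-II, chr8:94386369-94386395, plus strand: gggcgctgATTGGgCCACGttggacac
Dnajb11, ERSE-II, chr16:22857844-22857870, plus strand: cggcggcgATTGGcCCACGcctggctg
Herpud1, CARE, chr8:94386309-94386332, minus strand: gtgcgggcTGATGcAAcccgccgt
Chac1, CARE, chr2:119351041-119351064, minus strand: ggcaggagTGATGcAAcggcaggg
Trib3, CARE, chr2:152344031-152344054, plus strand: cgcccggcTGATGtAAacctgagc
Asns, CARE, chr6:7693217-7693240, minus strand: cagccacaTGATGaAActtcccgc
Herpud1 was the only one of the 28 genes whose window held an element of both kinds. A match describes letters, not a bound site, and a window without a match says nothing about the factor.

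**Figure D1:**
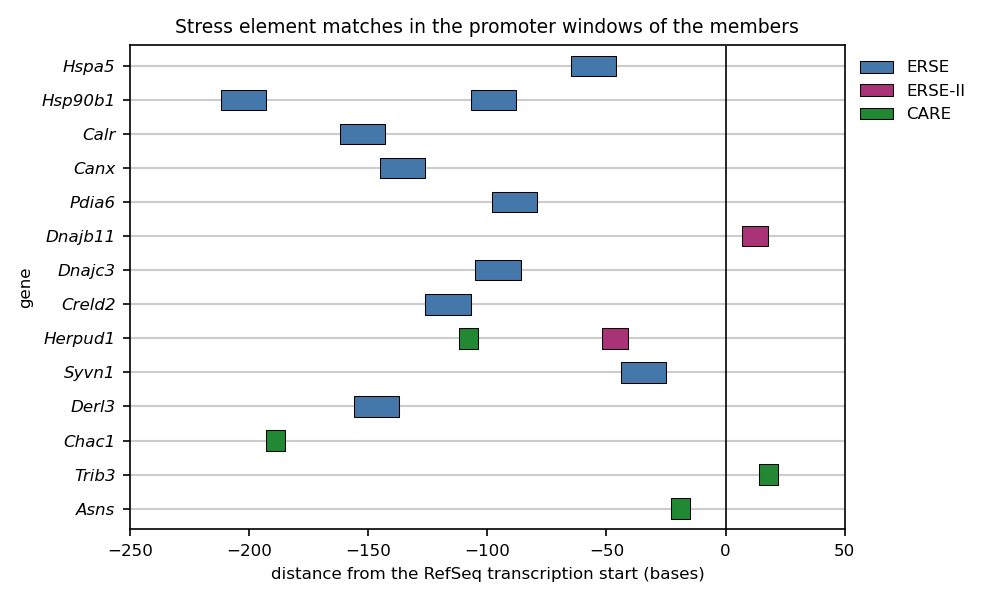
Position of each element match (coloured bars) in the promoter windows of the 14 genes that held at least 1, as distance in bases from the RefSeq transcription start (vertical line at 0). ERSE matches lie on folding and ERAD genes, and CARE matches on Chac1, Trib3, Asns and Herpud1.

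The whole 250 bases before the start are given for Herpud1, which had the smallest adjusted p of the ERAD genes below, for Hspa5, the central chaperone, and for Chac1, an Atf4 target, with the span of each match in capitals. All 3 lie on the plus strand, and a CARE on the opposite strand reads as its reverse complement.
Herpud1, chr8:94386179-94386428: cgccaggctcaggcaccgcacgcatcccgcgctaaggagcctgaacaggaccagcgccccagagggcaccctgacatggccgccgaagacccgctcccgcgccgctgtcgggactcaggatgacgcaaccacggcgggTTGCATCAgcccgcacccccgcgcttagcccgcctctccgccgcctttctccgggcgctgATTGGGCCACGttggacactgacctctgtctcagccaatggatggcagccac
Hspa5, chr2:34771840-34772089: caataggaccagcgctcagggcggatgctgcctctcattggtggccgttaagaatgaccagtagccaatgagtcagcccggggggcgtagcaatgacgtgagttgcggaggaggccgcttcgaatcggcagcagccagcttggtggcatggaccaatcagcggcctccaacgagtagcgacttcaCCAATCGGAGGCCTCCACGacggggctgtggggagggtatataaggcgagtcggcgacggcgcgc
Chac1, chr2:119350992-119351241: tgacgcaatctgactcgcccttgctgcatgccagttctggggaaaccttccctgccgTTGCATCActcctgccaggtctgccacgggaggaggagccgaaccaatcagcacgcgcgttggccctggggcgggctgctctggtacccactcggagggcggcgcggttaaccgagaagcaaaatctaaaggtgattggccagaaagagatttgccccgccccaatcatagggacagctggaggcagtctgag

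Total counts ran from 26.7 to 36.9 M per library, and mitochondrial genes took 6.12% to 8.74% of them, the highest share in KO NT replicate 2. The stem cell markers Lgr5 and Olfm4 were counted in every library, at 80.3 to 133 and 7975 to 12846 counts scaled to library size (CPM). Chrm3, the targeted gene, was still counted in the KO groups, at 6.04 to 9.24 CPM against 10.9 to 13.0 CPM in WT. The 10 stromal and endothelial markers summed to at most 3.89 CPM in any library. The 34 genes together took 0.556% to 0.757% of a library's counts, with the 3 old libraries (0.744% to 0.757%) above the 3 young ones (0.645% to 0.673%).

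Per length of transcript, the genes spanned more than 3 orders of magnitude. In young cells the highest mean levels, as CPM per kilobase of exon (RPKM), were those of the calcium-binding chaperone Calr (291 ± 6.27, SD, n = 3), of the ER Hsp90 protein Hsp90b1 (245 ± 11.3), of the disulfide isomerase Pdia3 (235 ± 4.05) and of Hspa5, also known as BiP (199 ± 2.39). The transcription factors Atf4 (77.9 ± 2.97) and Xbp1 (50.5 ± 3.97) were the highest outside the folding group. The sensors Atf6 (7.07 ± 0.05), Ern1 (6.58 ± 0.26) and Eif2ak3 (5.91 ± 0.13) lay close together, while Ern2 reached 16.8 ± 1.77. Derl3 (0.990 ± 0.149), Chac1 (0.275 ± 0.044) and Trib3 (0.101 ± 0.088) were the lowest, so that their changes rest on few reads. Of the 34 genes 10 share exon bases with a gene on the opposite strand, from 12 bases in Ppp1r15a to 231 in Derl2, 415 in Hsp90b1 and 485 in Eif2ak3. Since the strand setting of the counting was not given, reads from these stretches cannot be told apart.

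The first comparison asked how ES changed these genes in WT. Herpud1, an ERAD protein of the ER membrane, rose, as did Ern2, the Ire1 sensor of mucus-producing epithelium, and Creb3l2, an ER-anchored transcription factor of secretory cells. Of the 34 genes 3 rose and 0 fell at a Benjamini-Hochberg adjusted p under 0.05 in the quasi-likelihood test of edgeR, where 3.48% of all 17364 tested genes were called, 2.1% higher and 1.39% lower. The difference was above 0 in 31 of 34 genes, against 49.3% of all tested genes. For the folding genes it was small and above 0 in 13 of 14, with a median log2 fold change of 0.25 against 0.00 over all tested genes. None of the 14 was called by edgeR or by limma-voom, whereas DESeq2 called 9 of them, all higher. Over all 17364 tested genes DESeq2 called 1028, in either direction.

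In the ERAD group, Herpud1 (chr8:94386438-94395377) was at 68.8 and 65.6 CPM in WT NT and at 89.8 and 88.3 CPM in WT ES. Both ES libraries were above both NT libraries, and the log2 fold change was 0.41 ± 0.06 (SE, edgeR adjusted p = 0.00912). Syvn1, the ubiquitin ligase at the core of ERAD, was level, at 49.1 and 49.1 CPM against 49.0 and 48.0 CPM. The other 5 ERAD genes were not called by edgeR, from -0.13 for Derl3 to 0.28 for Edem1, which takes misfolded glycoproteins out of the folding cycle and was called by DESeq2.

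Among sensors and factors, Ern2 (chr7:122169893-122186207) was at 34.4 and 32.1 CPM in WT NT and at 47.8 and 44.4 CPM in WT ES. The groups did not overlap, and the log2 fold change was 0.47 ± 0.08 (edgeR adjusted p = 0.0158). Creb3l2 went from 14.5 and 14.95 CPM to 22.0 and 23.5 CPM (0.63 ± 0.13, edgeR adjusted p = 0.0337). Its relative Creb3l1, at 40.7 and 35.3 against 44.3 and 43.6 CPM, was not called (edgeR adjusted p = 0.213), nor were Xbp1 (0.10), Atf6 (0.23), Ern1 (0.25) and Eif2ak3 (0.29).

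Among the folding genes, Hspa5 was at 677 and 692 CPM in WT NT and at 817 and 843 CPM in WT ES, a log2 difference of 0.28 ± 0.07 with an edgeR adjusted p of 0.0636. Creld2, a disulfide isomerase-like protein, had 0.39 ± 0.09 (edgeR adjusted p = 0.0526), Pdia6, a disulfide isomerase, 0.30 ± 0.07 (0.0546) and Hyou1, an ER Hsp70-like chaperone, 0.26 ± 0.06 (0.0558). In these 4 genes both ES libraries lay above both NT libraries, and each missed the threshold narrowly. With 2 libraries in each group of this experiment, such a separation is weak evidence by itself. How many of all tested genes showed it was not counted, in this or any other comparison. Dnajb9, a cochaperone that holds Ire1 in check, was the exception of the group, at 37.04 and 40.5 CPM in NT against 33.6 and 30.6 CPM in ES (-0.27 ± 0.13, edgeR adjusted p = 0.300). At an unadjusted p under 0.05, 12 of 14 folding genes, 3 of 7 ERAD genes, 6 of 7 sensors and factors and 0 of 6 Atf4 branch genes were higher, together 21 of 34 against 9.61% of all tested genes.

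No gene of the Atf4 branch was called in this comparison, by edgeR, DESeq2 or limma-voom. Atf4 itself was at 145 and 144 CPM in WT NT and at 152 and 155 CPM in WT ES (0.09 ± 0.06), and Asns, asparagine synthetase, at 58.2 and 56.6 against 58.1 and 57.7 CPM (0.01 ± 0.08). Chac1, which degrades glutathione, had 3 and 10 counts against 8 and 17, too few to place its difference (1.03 ± 0.84). Outside the 34 genes, 4 of 27 tested other folding, ERAD and ER export genes rose and 0 fell: the disulfide isomerases Txndc5 (0.33) and Pdia5 (0.44), the ER reductase Dnajc10 (0.32) and the COPII coat gene Sec24d (0.57). Of 30 other Atf4 and amino acid response targets, 0 were called by edgeR, DESeq2 or limma-voom, with 3 higher and 5 lower at an unadjusted p under 0.05 (9.61% and 8.97% of all tested genes).

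Markers of other cell types and of stem cells differed between the same libraries. Of 15 goblet cell genes, 11 rose in WT ES, and their summed level was 5155 to 5276 CPM in WT NT and 10359 to 10570 CPM in WT ES; none was at 0 in any group. Of 13 tested Paneth cell genes 5 rose, as did 4 of 12 enteroendocrine and 2 of 15 absorptive enterocyte genes. Stem cell genes went the other way: 10 of 15 fell and 0 rose, and they summed to 14985 to 15314 CPM in WT NT and to 11744 to 12143 CPM in WT ES. In bulk RNA more cells of a type and more RNA per cell cannot be told apart, and the part of secretory or stem cell shares in the differences above was not tested. Each of the 3 calls was lost when any 1 of the 4 WT libraries was left out (highest adjusted p 0.163 for Herpud1, 0.224 for Ern2 and 0.253 for Creb3l2). Such a fit sets 1 library against 2 and assumes that the lone library varies like the other groups. The log2 fold changes without 1 library stayed between 0.37 and 0.44 for Herpud1, 0.42 and 0.53 for Ern2 and 0.59 and 0.68 for Creb3l2. When the WT groups were fitted alone, 20 of the 34 genes were called, all higher, where 1875 of all 16493 tested genes were called in either direction.

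**Figure D2:**
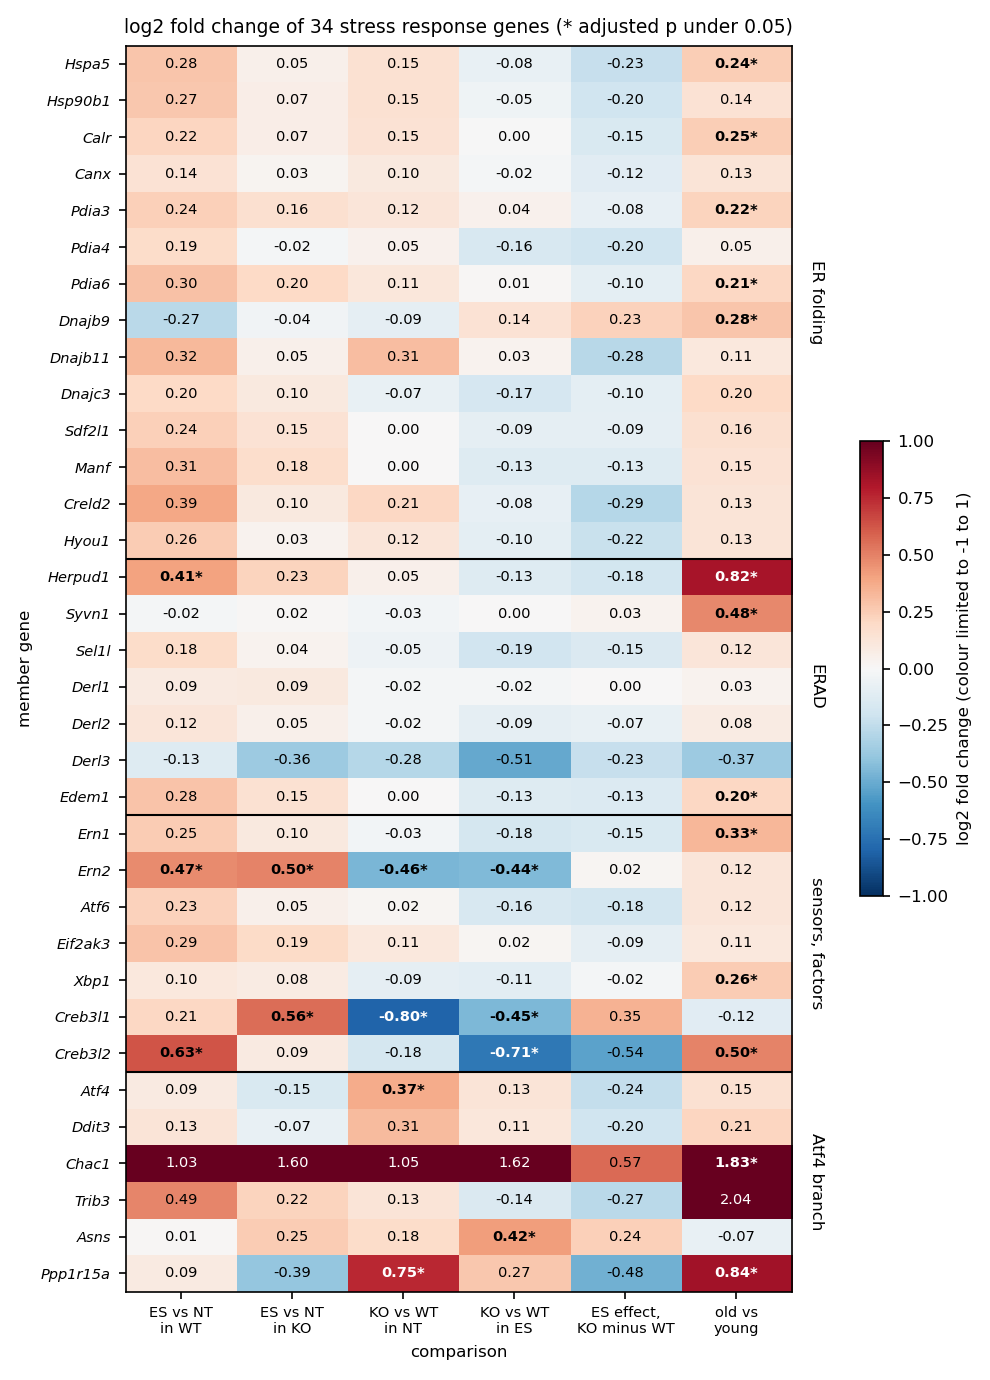
log2 fold change of each of the 34 genes (rows, grouped by role) in the 6 comparisons (columns), from the edgeR fit, with colour limited to the range shown and an asterisk where the adjusted p was under 0.05. Most folding genes are above 0 after ES in WT and in KO, in KO NT against WT NT and in old cells. Ern2 and Creb3l1 are below 0 in both comparisons of KO with WT.

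In KO, the same comparison of ES with NT called 2 of the 34 genes, both higher, where 0.513% of all tested genes were called and 0.415% rose. Ern2 went from 23.7 and 24.7 CPM in KO NT to 32.5 and 35.6 CPM in KO ES (0.50 ± 0.09, edgeR adjusted p = 0.0341). Creb3l1, an ER-anchored transcription factor of secretory cells, went from 21.9 and 21.8 to 32.7 and 31.7 CPM (0.56 ± 0.09, edgeR adjusted p = 0.0235). The KO ES levels of Ern2 overlapped those of WT NT, and those of Creb3l1 lay below them. Ern2 lost its call in 8 of 8 fits that left out 1 library, and Creb3l1 in 5 of 8, namely without either WT NT library, KO NT replicate 2 or either KO ES library; the log2 fold changes stayed between 0.43 and 0.56 and between 0.54 and 0.58. Of the 15 goblet genes 9 rose here too, and the list summed to 2654 and 2723 CPM in KO NT and to 4478 and 4516 CPM in KO ES. Of 13 tested Paneth genes 6 rose, and 4 of 15 absorptive enterocyte genes fell.

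The folding genes were divided between the KO ES libraries. Hspa5 was at 743 and 775 CPM in KO NT and at 724 and 850 CPM in KO ES, and Hsp90b1 at 898 and 905 against 868 and 1025 CPM. All 14 folding genes were higher in KO ES replicate 2 than in replicate 1, by a median of 0.19 on the log2 scale, whereas the medians between the replicates of WT NT, WT ES and KO NT were 0.02, 0.04 and -0.01. For Hspa5 and Hsp90b1, replicate 2 lay above both WT ES libraries and replicate 1 below both KO NT libraries. Their ES difference in KO was nevertheless above 0 in 12 of 14, against 8567 of all 17364 tested genes, with a median of 0.07. Over all 34 genes it was above 0 in 28. None of the 14 was called in KO by edgeR, DESeq2 or limma-voom, and 2 were higher at an unadjusted p under 0.05 (4.61% of all tested genes). No Atf4 branch gene was called by these tools either. At an unadjusted p under 0.05 in edgeR, 2 of 6 were higher and 2 lower (801 and 692 of all 17364 tested genes). Mean levels went from 65.0 to 77.5 CPM for Asns and from 0.44 to 1.32 CPM for Chac1. They went from 187 to 168 CPM for Atf4 and from 35.8 to 27.3 CPM for Ppp1r15a.

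Whether the ES effect differed between KO and WT was tested as the difference of the 2 effects, in which 0 of 34 genes were called by edgeR, against 0.109% of all tested genes. DESeq2 and limma-voom called 0 as well, and at an unadjusted p under 0.05 edgeR had 2 higher and 5 lower (5.31% and 6.2% of all tested genes). The difference was above 0 in 7 of 34 genes, against 51.7% of all tested genes, and below 0 in 27. It was for Hspa5 -0.23 with a 95% interval from -0.45 to 0.00 and for Herpud1 -0.18 (-0.37 to 0.01). For Creb3l2 it was -0.54 (-0.96 to -0.11, edgeR adjusted p = 0.328), and leaving out KO NT replicate 1 called this gene (adjusted p = 0.0298). Creb3l1 had the opposite sign, 0.35 (0.08 to 0.62, edgeR adjusted p = 0.314), and for Ern2 the interval around 0.02 ran from -0.24 to 0.29.

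**Figure D3:**
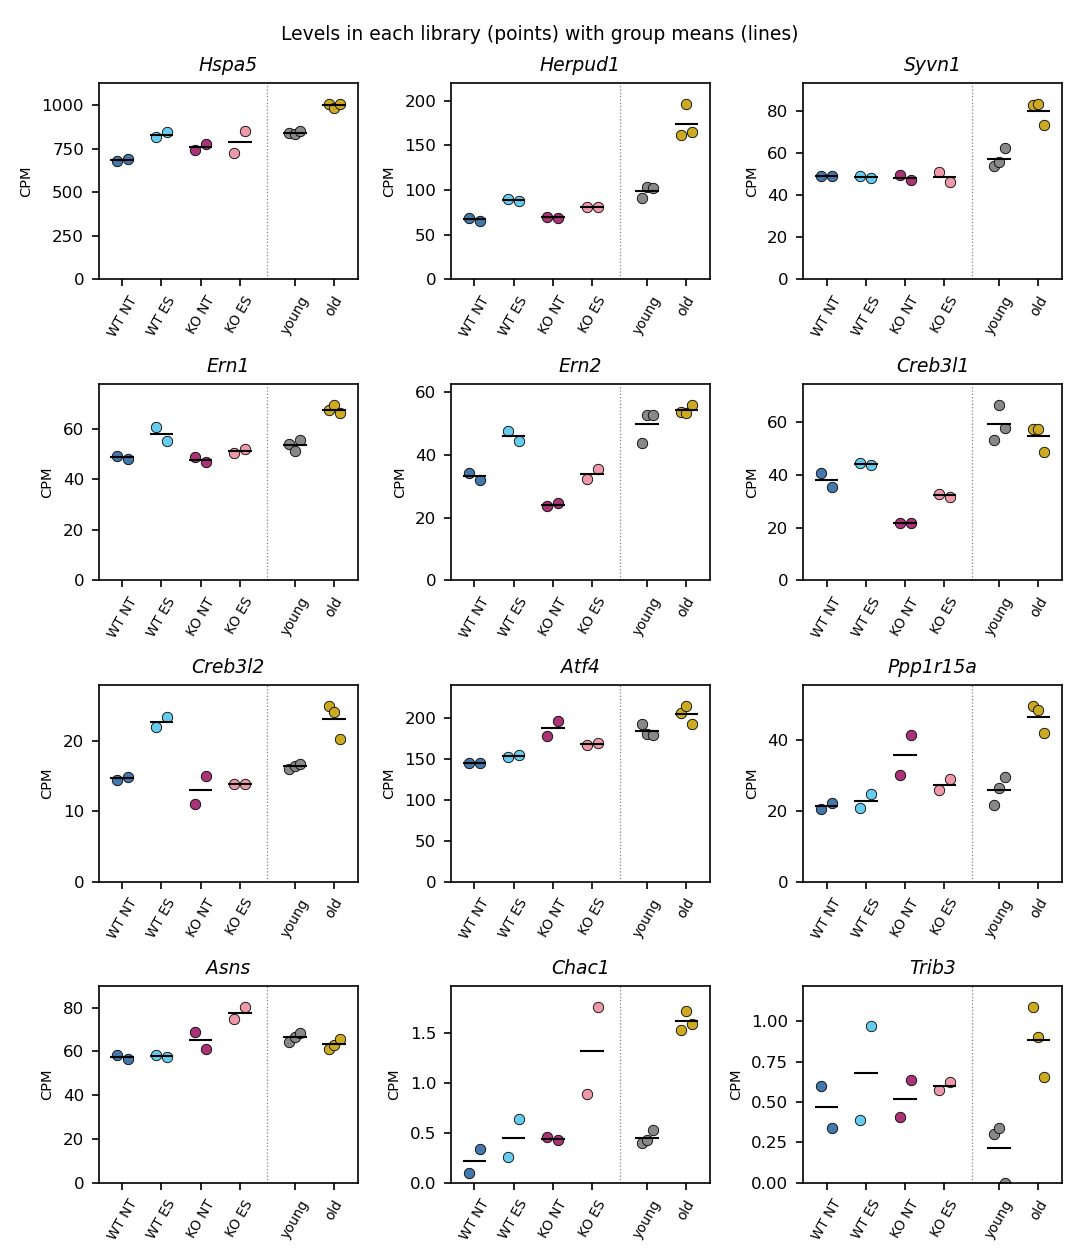
CPM of 12 genes in every library (points) with the group mean (line); the dotted line separates the 2 tables, which were scaled separately. Ern2 and Creb3l1 are lowest in KO NT, Asns is highest in KO ES, and Herpud1, Syvn1, Ppp1r15a and Chac1 do not overlap between young and old.

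The comparison of KO with WT asked what differed when Chrm3 was targeted in Lgr5 cells, first in NT. The ER-anchored factor Creb3l1 and the sensor Ern2 fell, while Atf4 and Ppp1r15a, the regulatory subunit that directs dephosphorylation of eIF2, rose. That is 2 of 34 genes higher and 2 lower, where 4.47% of all tested genes were called, 2.36% higher and 2.11% lower. No folding gene (0 of 14) and no ERAD gene (0 of 7) was called by edgeR or limma-voom; DESeq2 called 1 folding gene, and 2 folding genes and 0 ERAD genes were higher at an unadjusted p under 0.05 (8.64% of all tested genes). The folding difference was above 0 in 12 of 14 genes, against 8301 of all 17364 tested genes, with a median of 0.12. Since the 4 comparisons of this table share libraries, each WT NT library enters both this comparison and the first one.

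Creb3l1 (chr2:91982328-92024502) was at 40.7 and 35.3 CPM in WT NT and at 21.9 and 21.8 CPM in KO NT. It fell by 0.80 on the log2 scale (SE 0.09, edgeR adjusted p = 0.000604) and passed in each of the 8 fits that left out 1 library. Ern2 was at 34.4 and 32.1 CPM in WT NT and at 23.7 and 24.7 CPM in KO NT (-0.46 ± 0.09, edgeR adjusted p = 0.0133). Neither gene's groups overlapped, and the other 5 sensors and factors were not called, from -0.18 for Creb3l2 to 0.11 for Eif2ak3.

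Atf4 (chr15:80255184-80257541), the transcription factor of the integrated stress response, was at 145 and 144 CPM in WT NT and at 178 and 196 CPM in KO NT (0.37 ± 0.06, edgeR adjusted p = 0.00725). Ppp1r15a was at 20.4 and 22.1 CPM in WT NT and at 30.2 and 41.5 CPM in KO NT (0.75 ± 0.15, edgeR adjusted p = 0.0164). The KO NT libraries lay above the WT NT libraries in both genes, with replicate 2 the higher of the pair. Ddit3, also called Chop, was at 6.31 and 5.58 against 5.98 and 8.92 CPM and overlapped, and it shares exon bases with the opposite-strand gene Mars and with a second gene model of the same name, so its counts, too, are uncertain. Atf4, Ppp1r15a and Ern2 each lost the call without either WT NT library (highest adjusted p 0.109, 0.181 and 0.170), with log2 fold changes without 1 library from 0.32 to 0.44, from 0.52 to 0.97 and from -0.51 to -0.41.

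Of 30 other Atf4 and amino acid response targets, 0 were called in NT by edgeR and limma-voom and 2, both higher, by DESeq2, and 7 were higher and 2 lower at an unadjusted p under 0.05 (8.64% and 9.05% of all tested genes). Immediate early genes, which respond to stimulation and to cell handling, were higher in the same libraries: 16 of 19 rose, and they summed to 2007 CPM in each WT NT library and to 3577 and 5279 CPM in KO NT. Among them was Atf3 (2.78 on the log2 scale), which was placed in this list and not among the Atf4 and amino acid response targets. Of 10 cytosolic heat shock genes 3 rose, Hspa1a by 2.12, Hspa1b by 1.84 and Dnajb1 by 0.66 on the log2 scale. KO NT replicate 2, with the highest immediate early sum, also had the highest Atf4 and Ppp1r15a levels of the table. The part of stimulation or handling in the Atf4 and Ppp1r15a differences was not tested.

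In ES, KO against WT gave 1 gene higher and 3 lower of 34, where 7.56% of all tested genes were called, 3.09% higher and 4.47% lower. Asns (chr6:7675169-7693254), which makes asparagine, was at 58.1 and 57.7 CPM in WT ES and at 74.9 and 80.1 CPM in KO ES (0.42 ± 0.07, edgeR adjusted p = 0.00805). Both KO ES libraries were above every other library of the table. Atf4 was at 152 and 155 against 167 and 169 CPM and was not called (0.13 ± 0.06, edgeR adjusted p = 0.230). Chac1 had 8 and 17 counts in WT ES and 28 and 62 in KO ES, which did not overlap but were not called (1.62 ± 0.54, edgeR adjusted p = 0.1002).

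Other genes of amino acid supply rose with Asns in this comparison. Of 30 other Atf4 and amino acid response targets 7 rose and 0 fell, with a median of 0.23 against 0.00 over all tested genes. They included the neutral amino acid transporter Slc1a4 (0.61 ± 0.10, edgeR adjusted p = 0.00496), the alanyl-tRNA synthetase Aars (0.39 ± 0.07, 0.0114) and the mitochondrial one-carbon enzymes Mthfd2 (0.48 ± 0.10, 0.0158) and Shmt2 (0.30 ± 0.07, 0.0238). Of 13 genes for eIF2, its kinases and its exchange factor 2 rose, Eif2b3 (0.45) and Eif2s2 (0.24). The call of Asns was lost without KO ES replicate 2 and without each of the WT ES libraries in turn, and in each case 1 of the 34 genes was still called; its log2 fold change stayed between 0.37 and 0.47.

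The 3 genes that fell in ES belonged to the sensors and factors. Ern2 was at 47.8 and 44.4 CPM in WT ES and at 32.5 and 35.6 CPM in KO ES (-0.44 ± 0.08, edgeR adjusted p = 0.0109). Creb3l1 was at 44.3 and 43.6 against 32.7 and 31.7 CPM (-0.45 ± 0.08, 0.0107), and Creb3l2 at 22.0 and 23.5 against 13.9 and 13.8 CPM (-0.71 ± 0.13, 0.0103). None of these groups overlapped, in genes already called, and the share of all tested genes without overlap was not counted. Of the 14 folding genes 0 were called by edgeR, DESeq2 or limma-voom, with a median of -0.06 and 2 lower at an unadjusted p under 0.05 (11.7% of all tested genes). Of 27 other folding, ERAD and ER export genes 5 fell and 0 rose, among them Txndc5 (-0.42), Erp29 (-0.39), Sec24d (-0.55) and Sec31a (-0.23). Each of the 3 calls was lost without 2 or 3 of the 4 ES libraries: Ern2 without replicate 1 of either group, Creb3l1 without KO ES replicate 2 or each WT ES library in turn, and Creb3l2 without replicate 2 of either group. Their log2 fold changes stayed between -0.51 and -0.37, -0.47 and -0.43, and -0.76 and -0.66.

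Goblet cell genes moved in the same direction as Ern2 and Creb3l1 in both comparisons. In NT 14 of 15 goblet genes fell in KO, and in ES 13 of 15, with summed levels of 2654 to 2723 and 4478 to 4516 CPM in KO NT and KO ES. Tuft cell genes fell too, 8 of 10 tested in NT and 7 of 10 in ES. In NT 3 of 13 Paneth, 2 of 12 enteroendocrine and 2 of 15 stem cell genes also fell, and 1 of 15 absorptive enterocyte genes rose. In ES 13 of 15 absorptive enterocyte genes fell, from a summed 3074 to 3551 CPM in WT ES to 1969 to 2195 CPM in KO ES, as did 9 of 12 enteroendocrine and 3 of 13 Paneth genes. Of 15 stem cell genes 6 rose in ES, from a summed 11744 to 12143 CPM to 14836 to 15634 CPM, and 5 of 19 immediate early genes rose, among them Atf3 (1.34). Across the 4 groups Ern2 kept the order KO NT lowest, then WT NT and KO ES, which overlapped, then WT ES, and so did the goblet sum, except that there KO ES lay below WT NT. Hspa5 had another order: both KO NT libraries, lowest in the goblet sum, had more Hspa5 than both WT NT libraries. In the ageing experiment below, the goblet sum was higher in every old library than in every young one, while Ern2 and Creb3l1 were not called. The part of these cell types in the Asns, Ern2, Creb3l1, Creb3l2 and Hspa5 differences was not tested.

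**Figure D4:**
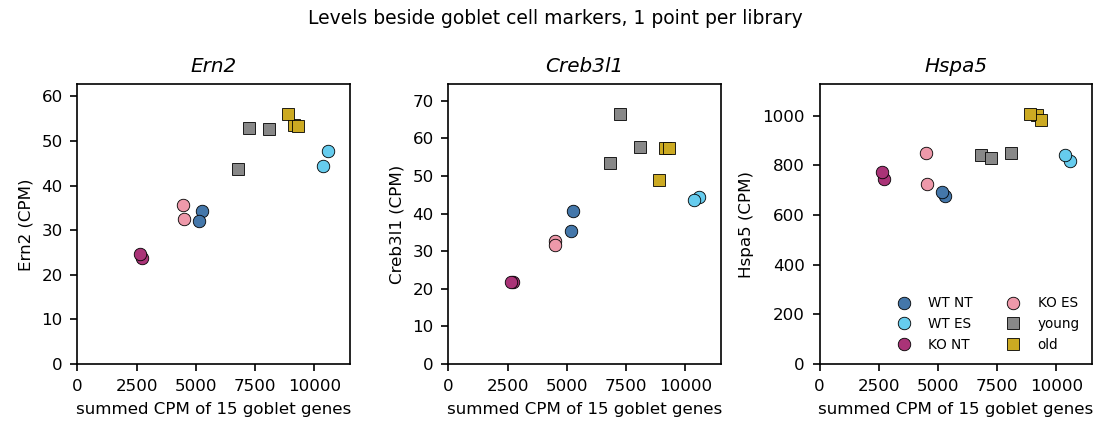
CPM of Ern2, Creb3l1 and Hspa5 in each library against the summed CPM of 15 goblet genes in that library; circles are the Chrm3 experiment and squares the ageing experiment, scaled separately. Ern2 and Creb3l1 are lowest in the KO NT libraries, which have the lowest goblet sums, whereas Hspa5 is not.

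The last comparison asked what differed between old and young stem cells. In old cells 5 chaperones and folding enzymes, 3 ERAD genes, the sensor Ern1, the factors Xbp1 and Creb3l2 and the Atf4 targets Chac1 and Ppp1r15a rose. Of 34 genes 13 rose and 0 fell, where 7.84% of all 16807 tested genes were called, 4.42% higher and 3.42% lower. At an unadjusted p under 0.05 there were 19 higher, against 10.9% of all tested genes. The difference was above 0 in 31 of 34 genes, against 49.8% of all tested genes, with a median of 0.16 against 0.00.

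Of the folding genes 5 of 14 rose and all 14 were above 0. Hspa5 (chr2:34771970-34777547) was at 841, 831 and 852 CPM in young and at 1003, 983 and 1005 CPM in old, a log2 fold change of 0.24 ± 0.05 (edgeR adjusted p = 0.00774). Calr was at 818, 841 and 854 CPM against 970, 1010 and 1001 CPM (0.25 ± 0.05, edgeR adjusted p = 0.00916). The old libraries lay above the young ones without overlap in both, by amounts several times the spread within each group.

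Pdia3 (0.22 ± 0.05, edgeR adjusted p = 0.0171), Pdia6 (0.21 ± 0.05, 0.0295) and Dnajb9 (0.28 ± 0.07, 0.0367) rose by similar amounts. Dnajc3, an ER cochaperone that also inhibits Perk, had 0.20 ± 0.06 and missed the threshold (edgeR adjusted p = 0.0518). The other 8 folding genes (Hsp90b1, Canx, Pdia4, Dnajb11, Sdf2l1, Manf, Creld2 and Hyou1) were not called, from 0.05 for Pdia4 to 0.16 for Sdf2l1.

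Among ERAD genes, Herpud1 changed most. It was at 90.9, 104 and 102 CPM in young and at 162, 196 and 165 CPM in old, a 1.77-fold rise (0.82 ± 0.08 on the log2 scale, edgeR adjusted p = 0.000184). Syvn1 (chr19:6046576-6053712) was at 53.8, 55.5 and 62.2 CPM against 82.7, 83.1 and 73.0 CPM (0.48 ± 0.08, edgeR adjusted p = 0.00349). Neither overlapped, and both passed in each of the 6 fits that left out 1 library. Edem1 rose by 0.20 ± 0.05 (edgeR adjusted p = 0.0375), and Sel1l, the partner of Syvn1, and Derl1 and Derl2, which form part of the export channel, were not called (0.12, 0.03 and 0.08). Derl3, at 1.31 to 2.27 CPM, was not called either (-0.37 ± 0.26).

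Of the sensors and factors, Ern1, the ubiquitous Ire1 sensor, was at 54.2, 51.5 and 55.6 CPM in young and at 67.3, 69.4 and 66.2 CPM in old (0.33 ± 0.06, edgeR adjusted p = 0.00730). Xbp1, whose mRNA it splices, was at 153, 161 and 178 against 196, 197 and 195 CPM (0.26 ± 0.06, 0.0292). Creb3l2 was at 16.0, 16.5 and 16.8 against 25.0, 24.2 and 20.3 CPM (0.50 ± 0.10, 0.0115). In all 3 genes, which were already called, every old library was above every young one. How many of all tested genes separated in this way was not counted. Ern2 (0.12), Atf6 (0.12), Eif2ak3 (0.11) and Creb3l1 (-0.12) were not called.

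In the Atf4 branch, Ppp1r15a was at 21.7, 26.6 and 29.6 CPM in young and at 49.5, 48.4 and 41.9 CPM in old (0.84 ± 0.11, edgeR adjusted p = 0.000982). Chac1 had 13, 15 and 19 counts in young and 51, 61 and 51 in old, a 3.56-fold rise (1.83 ± 0.32, edgeR adjusted p = 0.00544). Both kept their call in each of the 6 fits without 1 library. Trib3, a pseudokinase induced by Atf4 and Ddit3, had 10, 12 and 0 counts against 36, 32 and 21 and was not called (edgeR adjusted p = 0.0543); the count of 0 allows a level of up to 0.0840 CPM in that library.

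Asns and Atf4 itself were not called in old cells. Asns was at 64.4, 66.7 and 68.3 CPM in young and at 61.2, 62.8 and 65.5 CPM in old, overlapping (-0.07 ± 0.06, edgeR adjusted p = 0.549), and Atf4 at 192, 180 and 179 against 206, 214 and 192 CPM (0.15 ± 0.06, edgeR adjusted p = 0.147). Of 29 other Atf4 and amino acid response targets 0 rose by edgeR, DESeq2 or limma-voom and 1 fell, the amino acid transporter Slc7a5 (-0.41), with 3 higher and 3 lower at an unadjusted p under 0.05. Of 27 other folding, ERAD and ER export genes 1 rose, Pdia5 (0.36), and their median was 0.01. Of 13 genes for eIF2, its kinases and its exchange factor 0 were called by edgeR or limma-voom and 1, lower, by DESeq2. At an unadjusted p under 0.05 6 of them were lower (10.6% of all tested genes), and their median was -0.15.

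Other gene lists differed between the same old and young libraries. Immediate early genes rose in 16 of 19 cases, from a summed 3268 to 3364 CPM in young to 4951 to 5739 CPM in old. Atf3 (1.55), which was not placed among the Atf4 and amino acid response targets, was 1 of them. Immune cell genes rose in 7 of 10 tested, among them Cd8a (2.63) and Gzmb (1.68), from a summed 53.6 to 81.9 CPM to 151 to 167 CPM over 13 markers, none at 0 in either group. The goblet sum went from 6804 to 8080 CPM in young to 8903 to 9329 CPM in old, with 3 of 15 genes higher and 2 lower, and 7 of 10 tested tuft genes fell. Of 13 tested Paneth genes 5 fell, of 13 enteroendocrine genes 5 rose and 1 fell, of 15 absorptive enterocyte genes 3 rose and 3 fell, and of 15 stem cell genes 1 rose and 2 fell. The part of these cells or of stimulation in the 13 calls was not tested. Without young replicate 1, young replicate 2 or old replicate 1 there were 6, 4 and 8 calls in place of 13, and Dnajb9 and Edem1 each lost theirs in 5 of 6 fits without 1 library.

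The 4 groups of genes were set side by side as mean log2(CPM + 0.5) per library, a description with no test. The folding mean was higher in WT ES than in WT NT by 0.22 and in old than in young by 0.17, and the Atf4 branch mean by 0.16 and 0.54. The ERAD mean was higher by 0.14 and 0.20, and the mean of sensors and factors by 0.31 and 0.19. For ES in KO the differences were 0.08 for folding, 0.05 for ERAD, 0.22 for sensors and factors and 0.12 for the Atf4 branch. In KO against WT the folding mean differed by 0.09 in NT and by -0.05 in ES, and the ERAD mean by -0.04 and -0.13. The Atf4 branch mean differed by 0.34 and 0.30, and the sensors and factors by -0.20 and -0.28. Between KO NT and WT NT the libraries overlapped neither for the folding mean nor for the Atf4 branch, and both means were higher in KO NT. Libraries overlapped between KO ES and WT ES for the folding mean and did not for the Atf4 branch. Without the 3 Atf4 branch genes under 10 CPM (Chac1, Trib3 and Ddit3), its difference was 0.31 in old against young, 0.063 for ES in WT, 0.42 for KO in NT and 0.27 for KO in ES, and for ES in KO it went from 0.12 to -0.089. Single libraries also moved these means. The folding difference of KO in ES was 0.06 without KO ES replicate 1 and -0.16 without replicate 2, and that of ES in KO was 0.18 and -0.03. The Atf4 branch difference of ES in WT was 0.25 without WT ES replicate 1 and 0.064 without replicate 2, and that of ES in KO ran from 0.014 without KO NT replicate 1 to 0.22 without KO NT replicate 2, with 0.21 and 0.023 without KO ES replicates 1 and 2.

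**Figure D5:**
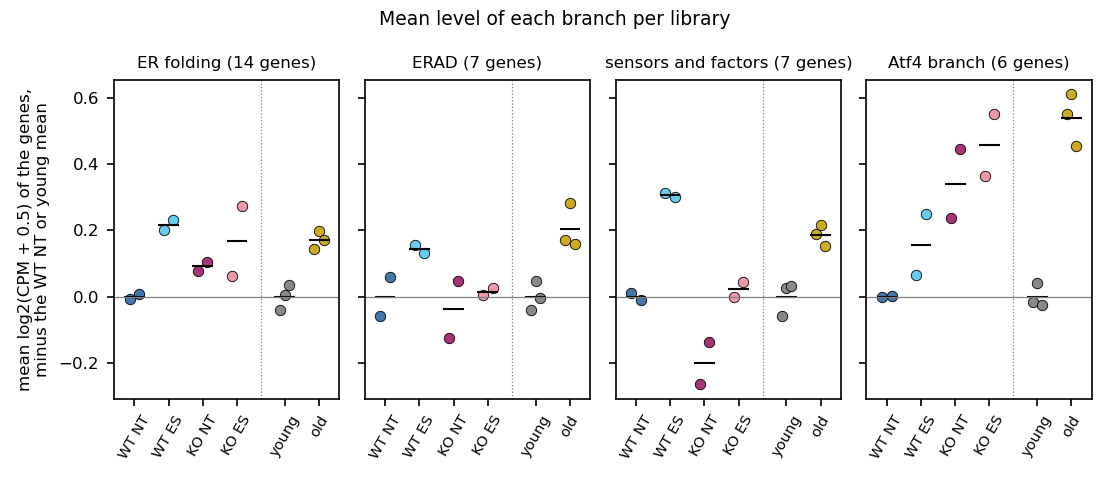
Mean log2(CPM + 0.5) over the genes of each role in every library (points) with the group mean (line), relative to the mean of WT NT in the Chrm3 experiment and of young in the ageing experiment. The Atf4 branch mean is higher in KO NT, KO ES and WT ES than in WT NT and in old than in young. The folding mean is higher in WT ES and KO NT than in WT NT and in old than in young. Without Chac1, Trib3 and Ddit3, all under 10 CPM, the Atf4 branch difference was 0.063 for ES in WT and 0.31 for old against young. Of the remaining genes of this branch only Ppp1r15a was called in old cells.

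Genes were called with and without an ERSE in the windows printed above. In old against young 4 of the 9 genes with ERSE rose (Hspa5, Calr, Pdia6 and Syvn1), with a median log2 fold change of 0.20, and 9 of the 19 genes whose window had no ERSE match, with a median of 0.21. Of the 4 genes with CARE, Herpud1 and Chac1 rose in old cells, and the range ran from -0.07 for Asns to 2.04 for Trib3. After ES in WT 0 of the 9 genes with ERSE were called by edgeR or limma-voom and 5 by DESeq2 (Hspa5, Hsp90b1, Calr, Pdia6 and Creld2), which called 1028 of all 17364 tested genes. Of the 9 genes 6 were higher at an unadjusted p under 0.05 in edgeR (9.61% of all tested genes), and the median of the 9 was 0.22. Of the 19 genes without an ERSE match, edgeR and limma-voom each called 2 and DESeq2 called 5. Of these 19 genes 10 were higher at an unadjusted p under 0.05 in edgeR, and their median was 0.24. In KO against WT in ES, Asns was the 1 gene of the 4 with CARE that rose, and Herpud1 and Trib3 were at -0.13 and -0.14.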

How the data were processed

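The authors deposited whole-number counts for each Ensembl gene, not normalized, as 1 table per experiment. Per the labels' protocols, RNA was extracted with Trizol and strand-specific TruSeq libraries were made from polyadenylated RNA. The mm10 genome and FastQC 0.11.2 are named per the submitters' processing notes; the aligner, the counting tool and its strand setting were not given in the sources used here. Columns named Ctrl were read as NT.

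From these counts, levels were computed as CPM after TMM scaling and as RPKM over exon lengths of GENCODE M21 (GRCm38, the assembly of mm10), which also gave gene positions. Genes were filtered with filterByExpr and tested with the quasi-likelihood test of edgeR 4.0.16 in R 4.3.3, 1 mean per group, separately for the 8 libraries of the Chrm3 table and the 6 of the ageing table. The p-values were adjusted by Benjamini-Hochberg over all tested genes, and genes under 0.05 are called. Standard errors (±) of log2 fold changes come from the change and its F statistic. The fit was tested on simulated data. All 34 genes could be named, and of other lists at most 4 called genes per comparison, by p. The members and lists were chosen with earlier results of these data known. Alternatives used DESeq2 1.42.0, limma 3.58.1 (voom), other scaling, filters and thresholds, a replicate block, fits of the 2 groups alone and each library left out; the older quasi-likelihood form and the branch means without 1 library were added after seeing the data. Replicates differed by 3.47 to 23.3 times the chi-square of sampling noise, so each was counted as 1 sample.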

Additional observations from a re-analysis of the deposited data

How the results depend on the processing

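Many member calls were lost when 1 library was left out, while their log2 fold changes kept their sign; such fits leave as few as 1 library in a group. After ES in WT 3 members were called, against 6 with RLE size factors, 1 with no count filter, 7 with a 1 CPM filter, 13 with DESeq2, 20 when only the groups compared were fitted, and 1 and 13 at adjusted p under 0.01 and 0.10. For ES in KO the 2 calls became 0 with no count filter, 0 with only the groups compared and 0 at 0.01. For KO in NT the 4 calls became 2 with no count filter and 2 at 0.01, and for KO in ES 1 at 0.01. In old against young the 13 calls became 8 with no count filter and 7 at 0.01. Leaving out each library in turn gave 0 to 14 calls for ES in WT, 0 to 2 for ES in KO, 1 to 5 for KO in NT, 1 to 5 for KO in ES, 0 to 1 for the difference of the ES effects and 4 to 13 for old against young. The causes were not tested. Over all genes, the 605 calls for ES in WT became 114 with no count filter, 1028 with DESeq2 and 1875 with only the groups compared.

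Samples share replicate numbers, but the correlations of same-numbered deviations (0.03, 0.12 and 0.15 in ageing, -0.01 to 0.17 in the Chrm3 table) do not show that the numbers pair them, and young replicate 1 correlated best with old replicate 2. With the replicate block 11 members were called for ES in WT, 2 for ES in KO, 4 for KO in NT, 4 for KO in ES, 0 for the difference of the ES effects and 17 for old against young. Over all tested genes it called 970 for ES in WT and 2019 for old against young.

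Without members under 10 CPM, the Atf4 branch difference was 0.063 for ES in WT, -0.089 for ES in KO and 0.31 for old against young, and the ERAD difference -0.10 for KO in ES and 0.29 for old against young. With a pseudocount of 1 the Atf4 branch difference in old against young was 0.43. No called member changed sign under any alternative run.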
